A study of Homo sapiens and Mus musculus with 9 samples.

Results

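Of the 3416 positions at which total small RNA of HEK293 cells formed a peak on the sense strand of a transcript, 438 lay in a 5' untranslated region (5' UTR). This is 12.8% of the sense peaks (95% exact binomial interval 11.7% to 14.0%). They were taken as every sense peak of the total small RNA library whose deposited region is the 5' UTR, with no further filter, and they fall on 251 transcripts with 249 gene symbols. The 4 deposited peak lists, sense and antisense for total and for capped small RNA, hold 12171 peaks together.

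The series studies translation initiation that is programmed by an added RNA, called a trans-RNA, and holds 9 libraries. HEK293 is a human embryonic kidney line, labelled wild type in every library used here, and the small RNA pair carries no treatment label. RNA from a column-size fraction was stripped of phosphates and then split. The larger share was treated with Cap-Clip, an enzyme that opens mRNA caps, before ligation (the cap library), and the smaller share was phosphorylated with T4 polynucleotide kinase (the total library). No cap-opening step is given for the smaller share, so the total library need not hold the capped RNA. For comparison with translation, 4 Ribo-seq libraries of the same line were used. They are a control, starved cells, and a pair of starved samples transfected with a trans-RNA directed at ATF4. The labels give that pair 1 treatment, and it is called trans1 and trans2 after the sample titles.

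Each group has 1 library, so no difference has a replicate check and no p-value is given. Intervals are 95% exact intervals for counting error only, and reads from PCR that carry no molecular identifier are not separate molecules. A listed peak has at least 4 reads in either library, so a position that is not listed may still hold reads. Sequencing depth is not known, since the lists hold peaks and not libraries. The lists hold 536974 total and 637679 cap sense reads. The identity of the line was not checked, because no marker of it can be read from peak lists.

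The 5' UTR is the stretch between the capped end of an mRNA and its start codon, along which the small ribosomal subunit scans. Small RNA that maps there can be a short RNA begun at a promoter and ended early, a fragment of an mRNA, or a structured RNA whose gene overlaps that exon. RNA that keeps the 5' end made by RNA polymerase II carries a cap, whereas mature microRNAs and internal fragments do not.

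The peaks on 3 host genes are shown first with the microRNAs that RefSeq places in those genes (ATP5MK and DGCR8) or beside their start (NDE1), since these are among the highest members with no cap peak. Sequences are mature microRNAs from RefSeq, build GRCh38.p14, 5' to 3', and capitals mark the seed, bases 2 to 8. No source used here names the build of the peak lists, so the peaks could not be laid on the genome.
hsa-miR-1307-5p, chr10:103394341-103394361, minus strand, gene ATP5MK: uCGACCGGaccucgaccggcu
hsa-miR-1307-3p, chr10:103394301-103394322, minus strand, gene ATP5MK: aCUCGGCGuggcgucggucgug
hsa-miR-3618, chr22:20085797-20085818, plus strand, gene DGCR8: uGUCUACAuuaaugaaaagagc
hsa-miR-1306-5p, chr22:20086072-20086093, plus strand, gene DGCR8: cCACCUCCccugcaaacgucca
hsa-miR-484, chr16:15643301-15643322, plus strand, gene NDE1: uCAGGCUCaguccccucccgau

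ATP5MK encodes a small subunit of mitochondrial ATP synthase. It had 31 total reads at position -172, counted in nt from the start codon, 53 at -133 and 7 at -132. The first and second of these positions are 39 nt apart, and the 5' ends of the printed miR-1307-5p and miR-1307-3p are also 39 nt apart on the genome. DGCR8, the RNA-binding partner of Drosha in the cutting of microRNA precursors, had 209 reads at -202, the highest member outside the shared ones. NDE1, which encodes a dynein regulator, had 81 reads at -792. The nearest cap peak lay 310 nt from the DGCR8 member and 356 nt from the ATP5MK member at -172, and NDE1 had none. None of these 5 members had a cap peak within 10 nt. They were chosen partly for this, so it is no result on microRNA hosts. MIR4787 lies in DOCK3, which had 9 reads at -134, and MIR2110 in CCDC186, which had 4 reads at -344, also without a cap peak within 10 nt. The 9 mature microRNAs of these 5 genes have 9 different seeds. These hosts were picked after their values were seen. In RefSeq, 16 member genes have a microRNA gene on their strand inside them or near their start, with 18 members. Of the 18, 1 was shared, beside 39.2% of all members outside WDR74 and 27.6% of those with 4 to 9 reads. The 18 include the 5 members above, and hosts were taken up after those were seen. A link of sharing to the hosted microRNA was not tested. The shared member is on NHS, host of MIR4768, with 35 total and 174 cap reads at -218. The others, with 4 to 20 reads each, include CPE, PDCD4, SLIT2 and VWA8, and none was laid on its microRNA. In RefSeq, 35 of the 249 member genes (14.1%, 9.99% to 19.0%) contain a small RNA gene, against 8.07% of all protein-coding genes. This is a share of genes and does not place a peak on the small RNA. The background is every protein-coding gene, not only genes with a listed peak. On a separate list of small RNA hosts, 33 genes are named in any peak list. Of these, 2 had a member, MCM7 and SNRPB, neither shared, beside 4.33% of all genes so named. A small RNA gene within 1000 bases of the gene start was present for 6 of the 199 member genes with a listed start, against 0.884% of all protein-coding genes. These are CCDC186, DOCK3, NDE1, RPL13, RPL17 and WDR74.

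WDR74, which encodes a WD-repeat protein of ribosome assembly, held 155 of the 438 members (35.4%) and 117389 of their 136148 reads (86.2%). RefSeq places RNU2-2, a gene for U2 small nuclear RNA, inside WDR74 and near its start. U2 is the spliceosome RNA that pairs with the intron branch point and carries a methylated cap. The genome has other near-identical U2 genes, so reads of U2 copies and of the WDR74 5' UTR cannot be told apart in these lists. The members on WDR74 filled 183 nt, from -538 to -356, and the cap peaks had the same first and last position. No WDR74 peak was listed in the coding sequence, the 3' UTR or on the antisense strand.

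The libraries shared positions on WDR74 but not their highest ones. The total library had 155 positions with a median of 104 reads (58 to 134), the cap library 148 positions with 274158 reads, and 138 positions were in both. The highest total position, -434, had 17668 total and 608 cap reads, and -510 had 15085 total and 29 cap reads. Positions -416 and -446 followed with 7248 and 6803 total reads, against 30 and 71 cap reads. At the first position, -538, the order turned, with 174 total and 62696 cap reads. That position held 0.148% of the total reads on WDR74 (0.127% to 0.172%) and 22.9% of the cap reads. Positions high in both were -382, with 5284 total and 43493 cap reads, -366, with 4725 and 48732, and -425, with 4536 and 28405. By stretch, -449 to -400 held 48.4% of the total and 18.4% of the cap reads, and -399 to -356 held 30.8% and 53.5%. Across the 138 positions in both libraries Spearman's rho was 0.54, as a description of positions that share 1 transcript and 1 library pair.

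**Figure D1:**
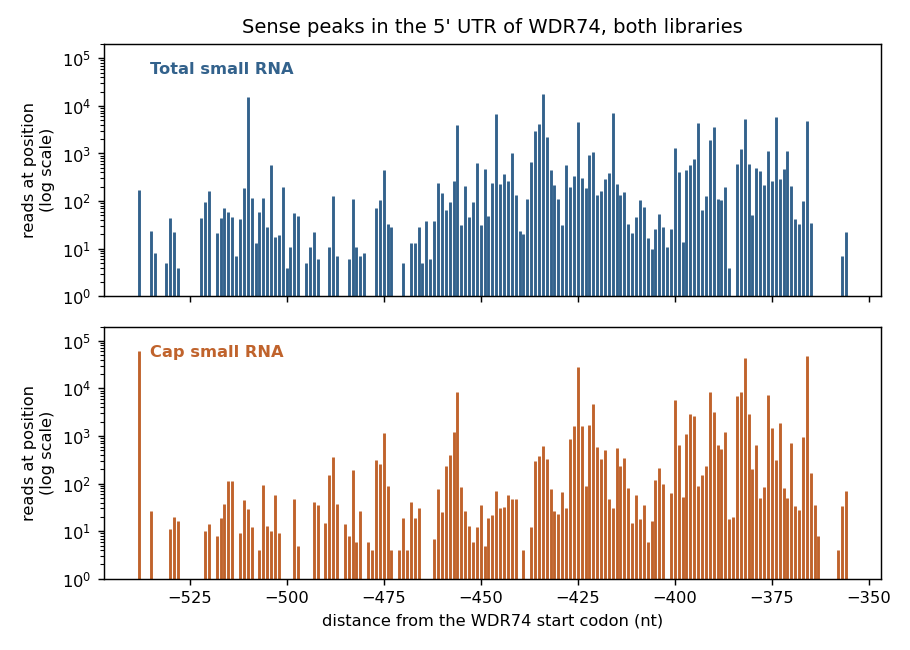
Reads at each listed position of the WDR74 5' UTR (log scale) against distance from its start codon in nt, for total small RNA above and cap small RNA below. Both fill -538 to -356, while the position at -538 has 174 total and 62696 cap reads and the one at -510 has 15085 total and 29 cap reads.

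Because WDR74 holds so much, most of what follows is on the 283 members outside it, a step chosen after its values were seen. They lie on 250 transcripts, 225 of which have 1 peak, 19 have 2, 5 have 3 and 1 has 5. Their reads sum to 18759. PREP, which encodes a peptidase that cuts after proline, held 66.1% of these in 5 adjoining positions: 404 reads at -69, 11879 at -68, 99 at -67, 4 at -66 and 10 at -65. The cap library listed 1 of these positions, -68, with 182 reads. The other 278 members had 6363 reads in all. The median member outside WDR74 had 7 reads (6 to 8; quartiles 5 and 16), 64 had exactly 4 reads, the lowest count listed, and 14 had 100 or more. Most of these peaks stand close to the listing limit, 174 of them with 9 reads or fewer. Where a transcript had 2 or more members, they were mostly neighbours: 22 of 25 such transcripts had a pair at most 10 nt apart, and 18 had a pair at adjoining positions. RPL13, with peaks at -212 and -8, TUBA1B, with peaks at -71 and -14, and FBN2, with peaks at -30 and -13, had none that close.

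The 5' UTR held a smaller share of peaks in the total library than in the cap library. Without WDR74, 8.68% of total sense peaks (7.73% to 9.70%, of 3261) and 60.4% of cap sense peaks (59.0% to 61.9%, of 4373) were in a 5' UTR. By reads the shares were 4.47% and 9.70%. The total share by reads rests on few genes, as PREP held 66.1% of those 5' UTR reads. With WDR74 kept, leaving out CTC1, the gene with the most reads, moved that share from 25.4% to 41.5%. In the total library, 59.6% of peaks outside WDR74 were in coding sequence and 31.7% in a 3' UTR. The antisense total peaks were in a 5' UTR in 12.8% of cases, 311 of 2424.

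Within the 5' UTR, members were most frequent next to the start codon. Outside WDR74 the median distance was -133 nt (-167 to -98; quartiles -292 and -46.5). Of these members, 52 (18.4%) lay within 30 nt and 127 (44.9%, 39.0% to 50.9%) within 100 nt of the start codon. The cap peaks of 5' UTRs outside WDR74 had a median of -128 nt (-134 to -122, n = 2643), and 41.8% were within 100 nt. The intervals of these medians overlap. Distances are set by the length of each 5' UTR too, which the lists do not give.

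**Figure D2:**
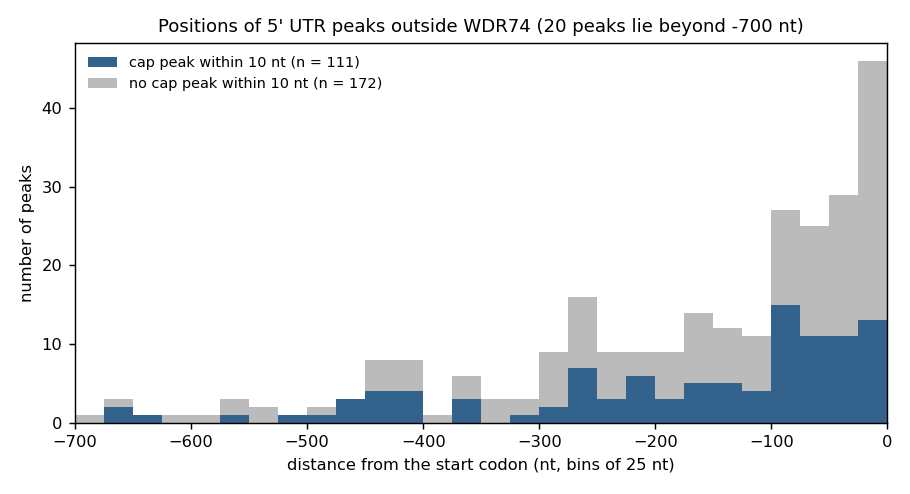
Number of total small RNA peaks outside WDR74 in bins of 25 nt against distance from the start codon, with peaks that have a cap peak within 10 nt in blue and the rest in grey. The bin next to the start codon is the fullest, with 46 peaks, and 20 peaks beyond -700 nt are not drawn.

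Members next to the start codon were mostly without a neighbour on the coding side. At -1 were 4 members, of which GABRG3 also had a peak at 0. MED31, a Mediator subunit, had 42 total and 71 cap reads there, and ART5, an ADP-ribosyltransferase, had 28 and 104. GABRG3, a GABA receptor subunit, had 5 total reads at -1 and 4 at 0, and ACTG1, cytoplasmic actin, had 4, with no cap peak for either. At -3 were PCDH18 with 4 reads, RPL23 with 6 and RPL27 with 7, and none had a cap peak. Just inside the coding sequence, at 0 or 1, were 9 peaks of 4 to 26 reads, none shared with the cap library, the highest on the mitochondrial genes MT-ND6 and MT-CO2. The farthest members were on SERPINB6 at -4027 with 5 reads, LTB4R at -1511 with 21, TLNRD1 at -1329 with 8 and SLIT2 at -1245 with 13. None of these 4 was shared.

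The library pair allows the question whether total and cap peaks share positions. A member was counted as shared where a cap sense peak lay on the same transcript at most 10 nt away. Of all 438 members, 266 (60.7%, 56.0% to 65.3%) were shared, where 37.1% of all total sense peaks were. On WDR74 all 155 members were shared, but cap peaks were listed at 148 of the 183 nt of that stretch. Every position there has a cap peak within 10 nt, so this result was fixed in advance, and the 60.7% includes it. Outside WDR74, 111 of 283 members were shared (39.2%, 33.5% to 45.2%), where 34.2% of all total sense peaks outside WDR74 were. Coding-sequence peaks were shared in 27.0% of cases (25.0% to 29.0%, of 1945) and 3' UTR peaks in 46.3% (43.2% to 49.4%, of 1033). The 5' UTR interval thus lies above that of coding sequence and overlaps that of the 3' UTR, but it counts adjoining positions as separate peaks. With neighbouring 5' UTR peaks outside WDR74 joined, the share was 35.0% (29.2% to 41.3%, of 254). That interval lies below the 3' UTR one and just above that of coding sequence, whose peaks, like those of the 3' UTR, were not joined. In the other direction, 114 of the 2643 cap peaks in 5' UTRs outside WDR74 (4.31%) had a total sense peak within 10 nt.

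**Figure D3:**
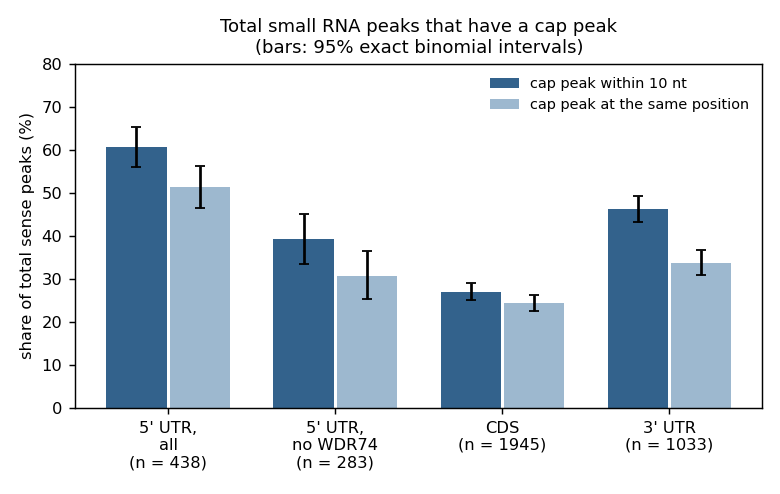
Share of total small RNA sense peaks (%) that have a cap sense peak on the same transcript, within 10 nt (dark) or at the same position (light), by region, with 95% exact binomial intervals. With WDR74 the 5' UTR bar stands at 60.7%, without it at 39.2%, between coding sequence at 27.0% and the 3' UTR at 46.3%.

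Shared members mostly matched the cap peak to the nucleotide. Of the 111 shared members outside WDR74, 87 had a cap peak at the same nucleotide, and the largest offset was 9 nt. The nearest member that was not shared, on PATL1, was 15 nt from a cap peak, followed by H4C4 at 16 nt and TUBA1B at 21 nt. Of the 172 members not shared, 135 lay on a transcript with no cap sense peak at all.

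Peaks with more reads were shared more often. Outside WDR74, 48 of 174 members with 4 to 9 reads were shared (27.6%, 21.1% to 34.9%), 42 of 82 with 10 to 49 reads (51.2%, 39.9% to 62.4%) and 21 of 27 with 50 or more (77.8%, 57.7% to 91.4%). Coding-sequence peaks in the same bands were shared in 16.2%, 46.3% and 69.5% of cases, and 3' UTR peaks in 29.0%, 61.0% and 81.0%. The order held in each region, so the read number moves with sharing everywhere, and its part in the difference between regions was not tested further. In the lowest band the 5' UTR interval lay above that of coding sequence (14.3% to 18.3%), and in the higher bands the intervals overlapped. These intervals too count adjoining positions as separate peaks. Shared members had a median of 10 reads and the others 6.

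By position, 14 of the 52 members within 30 nt of the start codon were shared (26.9%, 15.6% to 41.0%), and 36 of the 75 from -100 to -31 (48.0%, 36.3% to 59.8%). From -300 to -101 the share was 39.3%, and farther out, without WDR74, 38.8%. The intervals of the 4 bands overlap. The highest member within 30 nt had 52 reads, on AIF1L at -24, and it was not shared.

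At positions listed in both libraries, reads in the cap library were more often the higher ones. Of the 87 such members outside WDR74, 53 had more cap than total reads, 30 had fewer and 4 had equal numbers. The median ratio of cap to total reads was 1.38 (1.15 to 1.57), beside 1.43 (1.35 to 1.6) at 473 coding-sequence positions and 1.18 (0.96 to 1.44) at 349 positions of 3' UTRs. These 3 intervals overlap. With the highest cap peak within 10 nt instead, a choice that can only raise the cap value, the ratio was 1.43 (1.2 to 1.69) in the 5' UTR and 2.42 (2.14 to 3.05) in the 3' UTR, so the place of the 3' UTR depends on it. The ratios are of reads as listed and are not scaled for depth. They are not a capped fraction, since the libraries were prepared differently.

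The highest shared members outside WDR74 fall on both sides of equality. USP32, a deubiquitinase, had 429 total and 2811 cap reads at -83, and 52 and 72 at -82. WDR17 had 549 total and 683 cap reads at -90, and AADAT, an aminotransferase of lysine and kynurenine breakdown, had 253 and 397 at -220. RHBDL3, a rhomboid-family protein, had 123 and 182 at -45. These 4 genes had more cap than total reads at their highest position. More cap than total reads were also found on FOXE1, a forkhead factor, with 67 and 199 at -95, and on CD59, a complement inhibitor, with 67 and 162 at -59.

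More total than cap reads were found on BCL2, which blocks cell death at the mitochondrion, with 343 total (308 to 381) and 100 cap reads (81.4 to 122) at -817. MIGA1, a protein of mitochondrial fusion, had 276 total and 36 cap reads at -80. SOCS2, a brake on cytokine signalling, had 228 and 159 at -474, and 225 total reads at -480, where no cap peak was listed. CHD3, a chromatin remodeller, had 118 and 29 at -92. At each of these positions, and at PREP -68, the total library was the higher one. NPPB, which encodes a natriuretic peptide, had 104 and 56 at -70. It is the only member with antisense peaks within 10 nt, the highest with 6 total and 10 cap reads. ORMDL1, a regulator of sphingolipid synthesis, had 74 and 17 at -450, SPRY1, an inhibitor of growth factor signalling, 65 and 14 at -171, and UTRN, the dystrophin relative utrophin, 59 and 6 at -272. Some of these shared members are on hosts of small RNA genes too. RefSeq places SCARNA20 inside USP32, SCARNA21 inside CHD3 and SNORA98 inside UTRN, and no peak was laid on them.

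By the same position, these were the members outside WDR74 farthest from equal reads. IER2, an immediate early gene, had 11 total reads (5.49 to 19.7) and 726 cap reads (674 to 781) at -132, a ratio of 66. PLVAP, an endothelial membrane protein, had 13 and 327 at -35. HCFC1, a transcriptional coregulator, had 7 and 124 at -416, SMAD4, the shared transcription factor of TGF-beta signalling, 8 and 102 at -447, and NR2F1, a nuclear receptor, 4 and 55 at -368. These 5 had the highest ratios at the same position outside WDR74, and each had 13 total reads or fewer. PREP at -68 had the lowest ratio outside WDR74, 0.0153, with 11879 total and 182 cap reads.

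**Figure D4:**
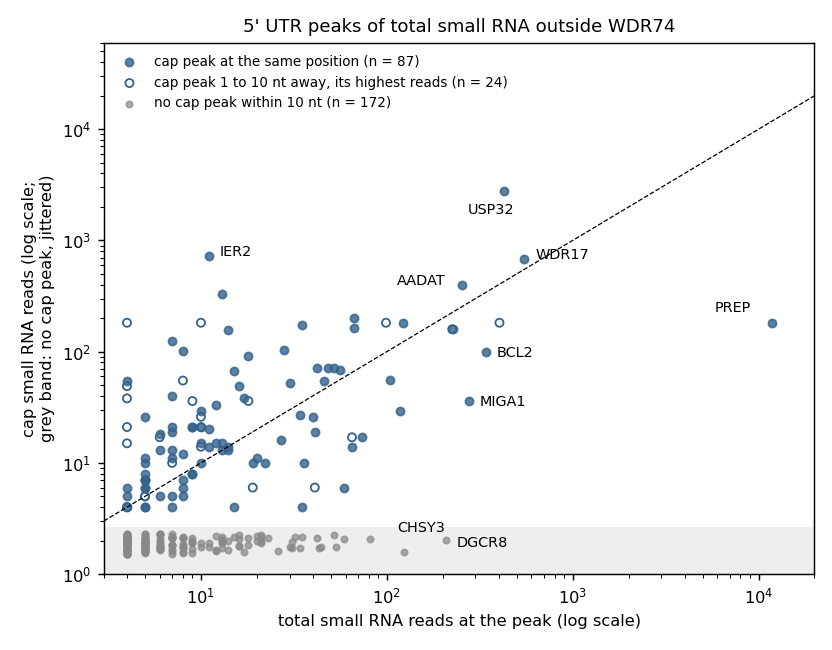
Cap reads against total reads (both log scale) for each of the 283 members outside WDR74, 1 point a peak, with the dashed line at equal reads. Filled points have a cap peak at the same position (87), open points 1 to 10 nt away (24), and grey points in the band have none within 10 nt (172); PREP lies far below the line and IER2 far above it.

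Among members that were not shared, DGCR8 at -202 was followed by CHSY3, a chondroitin sulfate synthase, with 124 reads at -171. After NDE1 came STK32A, a kinase, with 59 reads at -46, ATP5MK at -133, and AIF1L at -24. SMAD1, which carries BMP signals, had 44 at -272, ISLR2 43 at -541, and MGAT2, an N-glycan enzyme of the Golgi, 42 at -111. Of the 172, 6 had 50 or more reads. Where the cap library lists nothing, fewer than 4 reads cannot be told apart from none.

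The gene families below are given over those of their listed genes that any peak list names. Of all 5745 genes so named, WDR74 included, 249 (4.33%) had a 5' UTR member. Over all genes, 1330 transcripts had a coding-sequence peak in the total library and 1983 a 5' UTR peak in the cap library. The family counts of such peaks are to be read beside these. Of 65 cytosolic ribosomal protein genes 10 had one, 11 members in all with 4 to 11 reads. RPL13 at -212 was the only one shared, with 11 total and 14 cap reads. The others include RPL13 at -8 with 6 reads, RPL23 and RPL27 at -3, and RPL31 at -6 with 5 reads. In the same family 58 genes had a coding-sequence peak in the total library and 29 a 5' UTR peak in the cap library. Of 23 immediate early genes, IER2 and JUN had a member, JUN with 5 reads at -973 and no cap peak, while 17 had a cap peak in the 5' UTR. Of 58 splicing and RNA-binding factors, SF3A1, SNRPB, SRSF2 and SRSF5 had a member, with 4 to 5 reads and none shared, and 34 had a cap peak in the 5' UTR. EEF1A1, the elongation factor that brings tRNA to the ribosome, was the only 1 of 28 translation factors, with 8 reads at -10.

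No member fell on the genes of 3 shorter lists, each of which holds only part of its family. Of these, 27 heat shock and chaperone genes, 13 histone genes and 11 genes of the integrated stress response are named in any peak list, and 17, 11 and 5 respectively had a cap peak in the 5' UTR. Outside the lists, the histone genes H2BC8, with 5 reads at -41, and H4C4, with 4 at -18, and the J-domain gene DNAJC10, with 12 at -375, had a member, none of them shared. Of 16 genes with regulatory upstream frames or 5' UTR elements named in any peak list, BCL2, TFRC and XIAP had a member. TFRC, the transferrin receptor, had 13 reads at -218 and XIAP, an inhibitor of caspases, 4 at -98, neither shared. MCM7, a replicative helicase subunit and host of a microRNA cluster, had 5 reads at -103 and no cap peak. The lists are small and most of their peaks are near the listing limit, so a count is a description of these genes only.

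Other peaks of the members' transcripts were counted too. Of the 250 outside WDR74, 36 (14.4%) also had a total peak in coding sequence and 7 (2.8%) in the 3' UTR, while 120 (48.0%) had a cap sense peak and 110 (44.0%) had it in the 5' UTR. Antisense peaks were on 21 (8.40%) in the total library and on as many in the cap library. Outside WDR74, 1330 transcripts in all had a total peak in coding sequence, 585 in the 3' UTR, and 1982 a cap peak in the 5' UTR. The same shares over all transcripts were not computed, so these shares only describe the members.

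In the Ribo-seq control, footprint density in the 30 nt before the start codon was compared, as deposited relative to each transcript's own mean. Values were given for 165 of the 250 member transcripts outside WDR74. The median was 0.323 (0.193 to 0.524) over these 165 and 0.149 (0.135 to 0.167) over all 13517. It was 0.330 (0.155 to 0.575) over the 31 with a member in that same 30 nt. So the members' transcripts had the higher median, and the 31 overlapped both. Whether transcript abundance moves with this difference was not tested. The density there was 0 for 58 of the 165 (35.2%) and for 42.3% of all.

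The members' open reading frames, those of WDR74 included, were read against all frames of the authors' deposited fold tables. Of the 19709 transcripts listed, 130 have a member. The median over all frames was -0.08 (log2) for starvation against control, -0.39 for trans1 and -0.19 for trans2 against starvation. Between starvation and control, 5 had a frame at least 2-fold higher (3.85%, against 4.18% of all), namely BCL7A, COASY, CPE, PDCD4 and USP32, and 8 at least 2-fold lower (6.15%, against 6.91%). Between trans1 and starvation, JUN and KLF9 had a frame at least 2-fold higher (1.54%, against 1.31%) and 11 lower (8.46%, against 11.8%). Between trans2 and starvation none was higher, against 1.17%, and 8 were lower (6.15%, against 7.20%). Each share is near that of all transcripts. With upstream frames alone, 57 member transcripts were listed of 4364. For starvation 2 were higher (3.51%, against 3.64%) and 6 lower (10.5%, against 8.96%). For trans1, 1 was higher (1.75%, against 0.825%) and 4 lower (7.02%, against 12.9%), and for trans2 none was higher, against 1.31%, and 4 lower (7.02%, against 5.45%). These upstream counts are of 6 transcripts or fewer. In the authors' deposited table the upstream frame of ATP5MK was at -1.17 (log2) in starvation, and at -1.74 in trans1 and -0.28 in trans2 against starvation. Its coding frame was at -0.94, -0.87 and -0.35. Over all upstream frames the medians were -0.15, -0.36 and -0.11. The comparisons share the starvation library, and frames rest on 1 library a side.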

How the data were processed

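The members and gene lists were chosen with earlier results of these data known. Counts, the deposited reads at each peak position, and the distance from the start codon were used as deposited by the authors, 1 transcript per gene, per the file headers. Aligner roles, genome build and peak calling for the small RNA are not given in the sources used here. For the Ribo-seq libraries, which are of human cells, the processing notes name a mouse genome build. The deposited Ribo-seq values used here carry human transcript names, and this conflict was not resolved. Tools listed without roles in the submitters' processing notes are STAR 2.7.10a, Bowtie 1.2.3, cutadapt 2.8 and bcl2fastq 2.20.0.422. Whether a position is a read's 5' end is not stated. Log2 fold changes per open reading frame are the authors' deposited values, of unknown scaling. Footprint density is a deposited signal per nucleotide relative to the transcript's mean, per the file values.

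Peaks of both libraries were joined by transcript, strand and distance (at most 10 nt). The step was tested on simulated lists with at most 1 peak of each library per transcript, so transcripts with several peaks were not covered. The number of columns of per-sample values without a sample was 0. Shares have Clopper-Pearson, medians order-statistic and reads Poisson 95% intervals. No p-value was computed. Named by rule were the 12 members and the 12 shared members with the most reads, the 6 nearest to and 4 farthest from the start codon, genes with 4 or more members, and list members. Since WDR74 fills most of the first places, the rule was also applied without it, after its values were seen. Members that were not shared, the widest ratios, microRNA hosts and family genes outside the lists were likewise named after their values were seen. RefSeq (GRCh38.p14) gave names, neighbouring genes and microRNAs, and all 249 symbols matched. Python 3.11.15, numpy 2.4.6, pandas 2.3.3, scipy 1.17.1 and matplotlib 3.10.9 were used.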

Additional observations from a re-analysis of the deposited data

How the results depend on the processing

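No paired analysis was possible because each group has 1 library. WDR74 sets most values over all 438 members. Without it (chosen after seeing the data) the share with a cap peak fell from 60.7% to 39.2%, and to 35.0% with neighbouring peaks joined; the 5' UTR share of peaks went from 12.8% to 8.68%, the median distance from -331 to -133 nt, the median reads from 13 to 7, the share within 100 nt from 29.0% to 44.9%, and the median cap to total ratio from 6.49 to 1.43. Without WDR74 and PREP the 5' UTR share of reads went from 25.4% to 1.56%, and without CTC1, the gene with the most reads, to 41.5%. With peaks of at least 10 reads, the share with a cap peak was 79.4%, the 5' UTR share of peaks 18.6% and of reads 25.7%, the median distance -404.5 nt, the median reads 47, the share within 100 nt 18.5% and the ratio 10.98. With 1 peak per gene, the share with a cap peak was 35.9% and the median distance -133 nt; weighted by reads it was -425 nt, and reads summed per gene had a median of 7. At 0 nt the share with a cap peak was 51.4% and the ratio 1.4; with cap reads summed within 10 nt the ratio was 15.1. A window of 50 nt held 17.1% of peaks and one of 200 nt 39.5%. At a 1.5-fold limit, 31.5%, 38.5% and 27.7% of the member transcripts passed for starvation, trans1 and trans2, against 10.0%, 10.0% and 6.15% at 2-fold. The other 8 settings kept their value within the interval of the value reported. Depth limits each statement on an absent cap peak, since fewer than 4 reads are not listed.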
